A study of Mus musculus with 2 samples.

Results

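The nuclear lamina is a meshwork of lamin filaments under the inner nuclear membrane, and the LINC complex ties that membrane to the cytoskeleton. Its 10 genes examined here were Lmna, Lmnb1 and Lmnb2, which encode the lamins, Lbr, Tmpo and Emd, which encode inner membrane and chromatin-binding proteins, Sun1 and Sun2, which encode SUN proteins, and Syne1 and Syne2, which encode nesprins. The rule that picks them names the genes and uses no measured value, and all 10 were found by gene identifier among 43346 Ensembl gene rows. The samples were 2 total RNA libraries of MEL cells, a mouse erythroleukemia line used as a model of red cell precursors, in which dimethyl sulfoxide (DMSO) switches on hemoglobin synthesis. Both libraries came from cells of this 1 immortalized line kept in 2% DMSO for 5 days, so every cell measured carried the treatment, and no untreated library was analysed here. The label fields call the libraries biological replicates 2 and 1 and cite a single biosample record, so part of the difference between the libraries may be technical.

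A-type lamins come from Lmna, which makes lamin A and lamin C by different 3′ ends, and B-type lamins come from Lmnb1 and Lmnb2. Lbr and the LEM-domain proteins of Tmpo and Emd hold chromatin at the inner membrane, directly or through the DNA-binding protein BAF. SUN proteins span the inner membrane and bind, between both membranes, the short KASH end of nesprins, whose other end reaches actin, microtubules or intermediate filaments. Maturing red cells condense their chromatin and expel the nucleus, and caspase cleavage of the lamina and opening of the nuclear envelope have been described in mouse erythroblasts.

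Estimated counts summed to 90856320 in replicate 2 and 65109488 in replicate 1, and a count of 0 allows up to 0.0330 CPM and 0.0461 CPM (counts scaled to the library total) in those libraries. Levels are given as the authors' TPM, a share of the library's transcripts corrected for transcript length. In either library, each of 6 erythroid markers reached at least 1 TPM, while the summed TPM was 1.90 and 3.80 for 6 granulocyte markers, 0.54 and 0.75 for 5 macrophage markers and 0.04 and 0.08 for 6 fibroblast markers in replicates 2 and 1. Nearly all of the granulocyte sum was Prtn3, at 1.87 TPM in replicate 2 and 3.75 in replicate 1, the only granulocyte marker that reached 1 TPM. S100a8, Dcn, Col3a1 and Lum had 0 counts in both libraries. The 5 megakaryocyte markers summed to 45.2 TPM in replicate 2 and 47.7 in replicate 1, most of it Pf4 and Itga2b, with Ppbp at 0 counts. The part of these cells in any result below was not tested. Protein-coding genes held 12.9% of all TPM in replicate 2 and 13.5% in replicate 1, so TPM values of coding genes are low throughout. In bulk RNA, fewer cells with a transcript and less of it per cell cannot be told apart.

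Levels per transcript length ran from Lmna down to Syne2 over nearly 3 orders of magnitude. Lmna had the highest level of the members and the nesprin genes the lowest, and 8 of the 10 genes reached 1 TPM in each library. Over all protein-coding genes, 8003 of 21474 (37.3%) passed that threshold. The median of the members' mean levels was 9.24 TPM, beside 4.43 TPM for the protein-coding genes that passed. By role, the 3 lamin genes summed to 51.3 TPM in replicate 2 and 58.5 in replicate 1, the 3 inner membrane genes to 43.2 and 46.9, both SUN genes to 13.03 and 16.07, and both nesprin genes to 0.47 and 0.48.

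**Figure D1:**
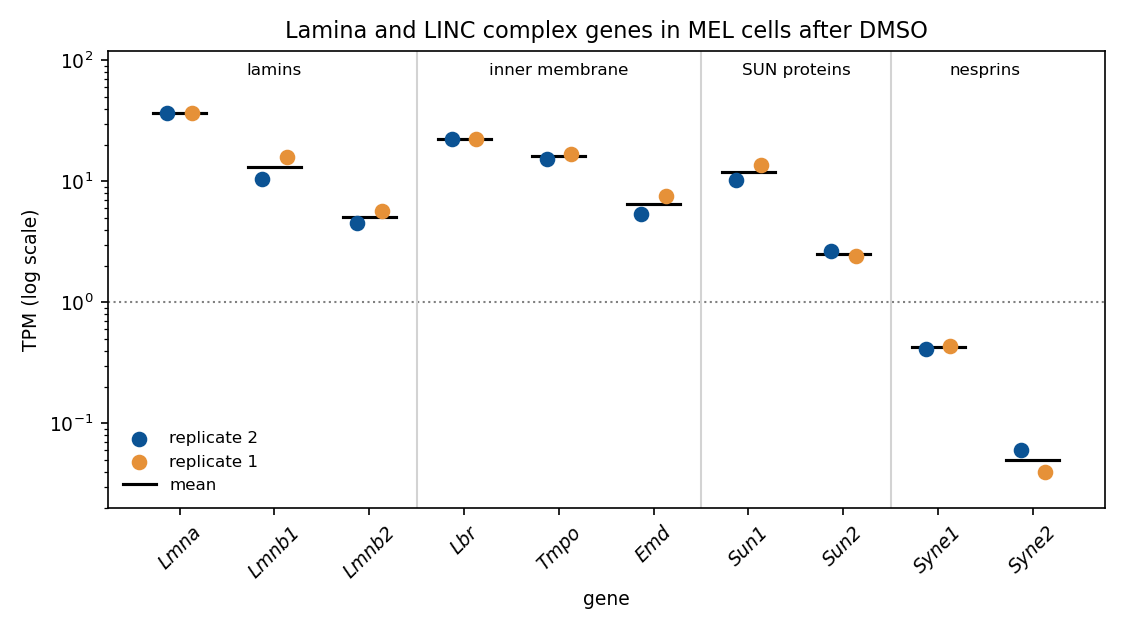
Level of each member in TPM (log axis) by role, with a point for replicate 2, a point for replicate 1 and a bar for their mean; the dotted line is at 1 TPM. Lmna lies at 36.4 and 36.8 TPM, and only the nesprin genes Syne1 and Syne2 fall under the line.

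Lmna (chromosome 3, 88480147 to 88509956, minus strand, GRCm38) was at 36.39 TPM in replicate 2 and 36.79 TPM in replicate 1, with 28439 and 17055 estimated counts. Its mean of 36.6 ± 0.283 TPM (SD, n = 2) was rank 408 of the 13628 protein-coding genes with a TPM above 0, so 97.0% of them lay below it. The levels of both libraries nearly coincided on this scale.

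The complete coding transcripts of Lmna in the annotation (GENCODE M21) begin at an upstream start or at a start inside the gene. Of these, the lamin A transcript was the lowest in TPM, though not in estimated counts. Lmna-201, whose coding sequence has 665 codons, held 21.7% of the gene's TPM in replicate 2 and 21.6% in replicate 1. Lmna-203, the full-length lamin C of 574 codons, was the leading transcript at 51.2% and 44.6%. Another coding transcript, Lmna-202 (462 codons), held 23.8% and 30.3%. It starts inside the gene at an exon of its own, shares the lamin C end for 1371 of its 1389 coding bases and begins with 18 bases that lamin C lacks. This is the structure of lamin C2, a short lamin known from germ cells of mammals.

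Added together, the transcripts with the lamin C end stood at 27.3 TPM in replicate 2 and 27.56 TPM in replicate 1, and lamin A at 7.91 and 7.95 TPM. The ratio of lamin C ends to lamin A was thus 3.45 and 3.47, 3.46 ± 0.0108 (SD, n = 2). The split by start was less even between the libraries: Lmna-203 was at 18.64 and 16.42 TPM, and Lmna-202 at 8.66 and 11.14 TPM. Of the 1536 exon bases of Lmna-202, 76 are exonic in neither Lmna-201 nor Lmna-203, and those 76 lie within an intron of both. Its count therefore rests on few bases, and the authors' posterior standard deviation was 3.75% of its count in replicate 2 and 3.57% in replicate 1, beside 1.61% and 2.32% for Lmna-203.

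**Figure D2:**
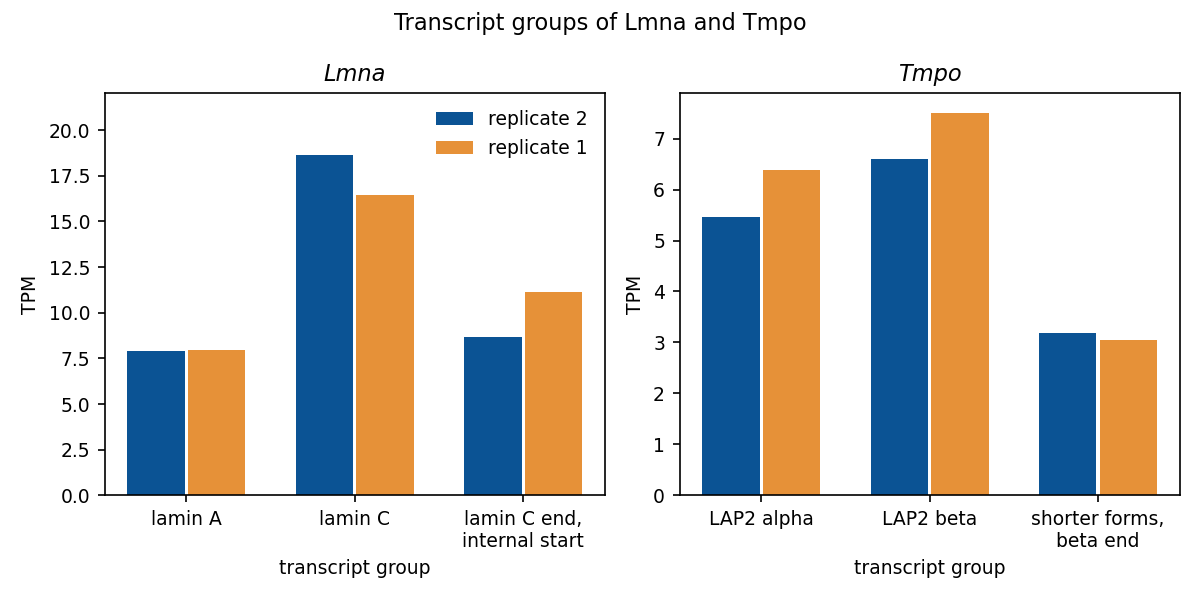
TPM of transcript groups of Lmna (left panel) and Tmpo (right panel), with a bar for replicate 2 and a bar for replicate 1 in each group, both axes from 0. Lamin A bars are at 7.91 and 7.95 TPM, below both lamin C groups, and the LAP2 beta bars at 6.6 and 7.51 TPM are the highest of Tmpo.

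The sequences around the 2 Lmna starts are shown because estimated counts were assigned to transcripts from both. Whether RNA begins at the internal start was not tested. Both sequences are RefSeq windows (GRCm38.p6) from 250 bases before to 50 after the start, on the minus strand. Capitals mark matches, on either strand, to CCNCNCCCN, a form of the CACCC box that the erythroid factor KLF1 binds, or to AGATAA, a form of the site for GATA factors.
Lmna upstream start, chr3:88503303-88503602: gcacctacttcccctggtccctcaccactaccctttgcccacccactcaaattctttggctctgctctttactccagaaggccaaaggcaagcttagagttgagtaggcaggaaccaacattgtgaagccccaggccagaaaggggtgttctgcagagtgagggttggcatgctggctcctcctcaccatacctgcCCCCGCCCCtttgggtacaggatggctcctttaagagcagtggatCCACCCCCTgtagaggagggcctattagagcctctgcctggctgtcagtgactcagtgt
Lmna internal start, chr3:88493263-88493562: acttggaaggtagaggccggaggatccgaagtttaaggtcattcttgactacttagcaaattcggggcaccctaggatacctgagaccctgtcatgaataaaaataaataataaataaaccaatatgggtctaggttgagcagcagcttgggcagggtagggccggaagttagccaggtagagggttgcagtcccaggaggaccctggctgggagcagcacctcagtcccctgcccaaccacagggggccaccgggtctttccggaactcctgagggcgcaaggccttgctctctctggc

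The upstream window held 2 CACCC-type matches and the internal window none, and neither held AGATAA. Of 32851 promoter windows of this length in the table, 49.4% held CCNCNCCCN and 11.2% AGATAA, so a match is common and is a description only. The upstream window had 1 CG dinucleotide and the internal one 7, with a median of 7 over all windows. Windows were read for 9 of the 10 members, 15 in all, of which 7 held the CACCC-type letters and 1, that of Lbr, also AGATAA.

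B-type lamin transcripts were less abundant per length than Lmna. Lmnb1 (chromosome 18, 56707813 onward) was at 10.42 TPM in replicate 2 and 16.03 TPM in replicate 1, from 10348 and 8663 counts, a mean of 13.2 ± 3.97 TPM (SD, n = 2). Lmnb2 (chromosome 10, 80901203 onward) was at 4.49 and 5.72 TPM, from 5790 and 4317 counts, a mean of 5.11 ± 0.870 TPM (SD, n = 2). The ranges of Lmnb1 and Lmnb2 did not overlap each other or that of Lmna, so the order Lmna, Lmnb1, Lmnb2 was the same in both libraries. The B-type sum was 0.410 of Lmna in replicate 2 and 0.591 in replicate 1, a mean ratio of 0.50 ± 0.13 (SD, n = 2). Lmnb1 over Lmna alone was 0.286 and 0.436, Lmnb2 over Lmna 0.123 and 0.155, and Lmnb1 over Lmnb2 2.32 and 2.80.

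Part of the Lmnb1 level belonged to a retained-intron transcript. Lmnb1-201, the full-length form of 588 codons, was at 9.45 TPM in replicate 2 and 12.74 TPM in replicate 1. The other listed transcript, Lmnb1-202, is 659 bases long, keeps an intron and has no coding sequence, and it was at 0.97 and 3.29 TPM. It held 9.31% and 20.5% of the gene's TPM but 1.87% and 4.63% of its counts, since a short transcript needs few reads for a given TPM. Over 3672 protein-coding genes at 1 TPM or more with a retained-intron transcript, the median share of such transcripts was 10.5% in replicate 2 and 12.5% in replicate 1. The share was higher in replicate 1 in 72.3% of these genes, and by as much as in Lmnb1 in 124 of them (3.38%).

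Lmnb2 was spread over a pair of full-length transcripts. Lmnb2-204 (596 codons) held 54.2% and 65.6% of its TPM in replicates 2 and 1, and Lmnb2-201 (615 codons) 43.6% and 29.1%. These share every exon base except 161 at the 3′ end of Lmnb2-201, and Lmnb2-201 is annotated with a start codon 57 bases further upstream in the same first exon. The posterior standard deviation was 17.3% and 9.11% of the count for Lmnb2-204, and 20.5% and 19.5% for Lmnb2-201, so the split between them is not settled in these libraries.

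The coding end of Lmnb2 is shown because its last codons mark the protein for farnesylation, and the genes of the modifying enzymes are described further on. Capitals are the last 4 codons before the stop, the CaaX box, in the last 60 coding bases.
Lmnb2-204 (lamin B2): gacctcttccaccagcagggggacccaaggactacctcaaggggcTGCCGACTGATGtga

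Lbr and Tmpo followed Lmna in level. Lbr (chromosome 1, 181815335 onward), a heterochromatin tether of the inner membrane that is also a sterol reductase, was at 22.50 TPM in replicate 2 and 22.46 TPM in replicate 1, from 28370 and 16837 counts. Its mean of 22.5 ± 0.0283 TPM (SD, n = 2) was 0.614 of the level of Lmna, with ratios of 0.618 and 0.610. A single transcript led: Lbr-201, with 626 codons, held 90.8% and 89.7% of the gene's TPM. Retained-intron transcripts held 5.42% and 5.74%. Its window in the promoter table had 42 CG dinucleotides, more than 97.0% of all windows.

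Tmpo (chromosome 10, 91147571 onward) encodes the LAP2 proteins, among them the soluble LAP2 alpha, which binds A-type lamins inside the nucleus, and the membrane protein LAP2 beta. It was at 15.25 TPM in replicate 2 and 16.94 TPM in replicate 1, from 20887 and 14033 counts, a mean of 16.1 ± 1.20 TPM (SD, n = 2). Only 5 transcripts were quantified for it, all with a complete coding sequence, so a full share of such transcripts was set by the annotation. Tmpo-202, the LAP2 beta transcript of 452 codons, led with 43.3% and 44.4%, followed by Tmpo-201, LAP2 alpha with 693 codons, at 35.8% and 37.7%, and by Tmpo-203, a shorter form with the coding end of beta, at 11.4% and 9.58%. The alpha and beta coding sequences are the same for their first 562 bases. LAP2 beta over alpha was 1.21 in replicate 2 and 1.18 in replicate 1, and all forms with the beta end over alpha 1.79 and 1.66. The lincRNA gene Gm26765, which overlaps Tmpo on the opposite strand, had 78 and 88 counts; whether counting used strand is not given in the sources used here.

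Emd (chromosome X, 74254687 onward), which encodes the LEM-domain protein emerin, was at 5.41 TPM in replicate 2 and 7.51 TPM in replicate 1, from 2861 and 2516 counts, a mean of 6.46 ± 1.48 TPM (SD, n = 2). Emd-201, its full-length transcript of 259 codons, held 82.6% and 90.8%. Emd was above Lmnb2 in each library, although their ranges over the libraries overlapped. Tmpo over Emd was 2.82 and 2.26.

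Sun1 was the more abundant SUN gene. Sun1 (chromosome 5, 139200637 onward) was at 10.36 TPM in replicate 2 and 13.67 TPM in replicate 1, from 10141 and 7696 counts, a mean of 12.02 ± 2.34 TPM (SD, n = 2). In each library it was below Lmnb1, and Lmnb1 below Tmpo, although the ranges over the libraries overlapped for each of these pairs. Sun2 (chromosome 15, 79724070 onward) was at 2.67 and 2.40 TPM, from 3559 and 1981 counts, a mean of 2.53 ± 0.191 TPM (SD, n = 2). Sun2 over Sun1 was 0.258 in replicate 2 and 0.176 in replicate 1.

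Of the genes above 1 TPM, Sun1 had the smallest leading share. It also had the most transcripts quantified, 21, beside 2 to 9 for the others, and the part of that number in its shares was not tested. Sun1-201, its longest coding form with 913 codons, led with 34.9% and 29.1% of the gene's TPM, and Sun1-205, with 790 codons, held 13.5% and 13.6%. Sun1-211, an incomplete coding fragment of 774 bases, held 18.9% and 16.4%. Transcripts with a complete coding sequence made up 58.3% of the TPM in replicate 2 and 54.7% in replicate 1, but 86.6% and 83.8% of the counts. Without transcripts shorter than 1000 bases, an alternative chosen after seeing the data, Sun1 stood at 6.66 and 8.59 TPM and Sun2 over Sun1 averaged 0.322 in place of 0.217. Sun2 itself was divided among 3 complete coding forms, Sun2-203 at 38.8% and 40.2%, Sun2-201 at 31.5% and 39.7% and Sun2-202 at 13.5% and 6.18%. Sun2-203 has 2 exon bases and Sun2-201 has 38 that the other lacks, and their posterior standard deviations were 10.2% to 12.9% of their counts.

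**Figure D3:**
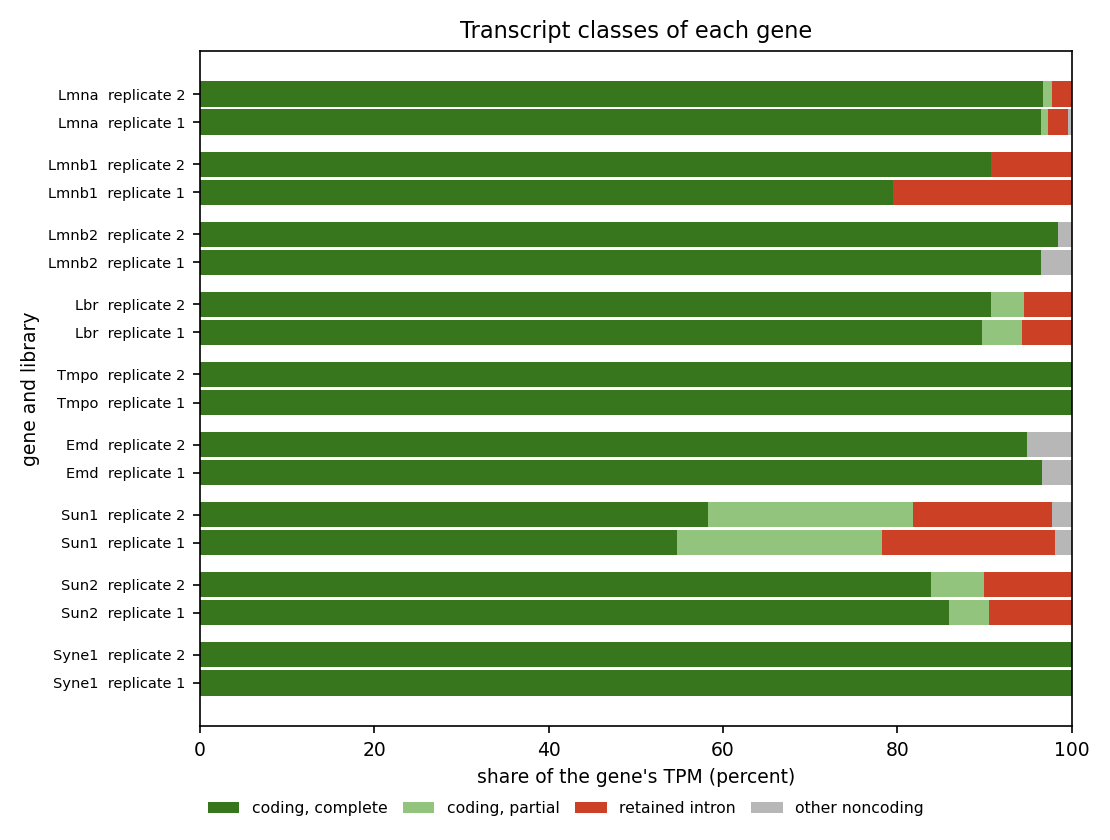
Share of each gene's TPM (percent) by annotated transcript class, with a bar for replicate 2 above a bar for replicate 1; Syne2 is left out because its transcripts are at the rounding limit of TPM. Complete coding transcripts hold 79.5% or more in each gene shown except Sun1, where they hold 58.3% and 54.7%. For Tmpo and Syne1 no other class was quantified, so their full share was set by the annotation.

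The nesprin genes were the lowest members. Syne1 (chromosome 10, 5020917 onward) was at 0.41 TPM in replicate 2 and 0.44 TPM in replicate 1, from 768 and 494 counts, a mean of 0.425 ± 0.0212 TPM (SD, n = 2), and 30.2% of detected protein-coding genes lay below it. Syne2 (chromosome 12, 75818134 onward) was at 0.06 and 0.04 TPM, from 175 and 64 counts, a mean of 0.050 ± 0.014 TPM (SD, n = 2), with 18.2% of detected protein-coding genes below it. Syne2 over Syne1 was 0.146 and 0.0909 in TPM, a ratio that rests on TPM values rounded to 0.01.

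All counts of Syne1 lay on Syne1-202, a short transcript of 4819 bases in the tables that starts inside the gene and encodes the membrane end of nesprin-1. In GENCODE M21, from which its start and coding end were taken, Syne1-202 has 3443 bases, so the quantified form differs from it. Syne1-201, which starts at the upstream end of the gene, had 0 counts in both libraries. The giant nesprin-1 transcript of the later annotation was not quantified in the tables, so RNA of it over shared exons could not be told apart from Syne1-202. The windows of both starts are shown (RefSeq, GRCm38.p6, minus strand, capitals as for Lmna).
Syne1 upstream start, chr10:5550643-5550942: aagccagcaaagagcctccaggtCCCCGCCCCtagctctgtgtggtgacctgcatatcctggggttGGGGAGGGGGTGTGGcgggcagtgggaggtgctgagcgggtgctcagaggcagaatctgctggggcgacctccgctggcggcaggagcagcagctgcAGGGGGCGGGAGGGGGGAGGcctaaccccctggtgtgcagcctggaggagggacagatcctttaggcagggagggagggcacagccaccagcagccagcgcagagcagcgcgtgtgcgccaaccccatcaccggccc
Syne1 start of Syne1-202, chr10:5069014-5069313: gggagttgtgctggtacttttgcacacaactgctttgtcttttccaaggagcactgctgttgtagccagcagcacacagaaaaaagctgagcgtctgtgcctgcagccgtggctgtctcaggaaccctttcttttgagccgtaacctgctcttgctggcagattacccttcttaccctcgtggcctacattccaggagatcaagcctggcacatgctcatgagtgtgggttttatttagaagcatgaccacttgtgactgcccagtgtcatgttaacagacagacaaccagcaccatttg

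The upstream window, at the start of Syne1-201 and of the giant transcript, held 6 overlapping or separate CACCC-type matches and 12 CG dinucleotides, and the window of Syne1-202 held none and 4. Neither held AGATAA.

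Syne2 reads were spread thinly over a very long gene. Its complete coding transcripts, the giant forms, held 75.2% of its counts in replicate 2 and 61.8% in replicate 1, and transcripts that end at the KASH coding end 154 and 51.5 counts. Its leading transcript by share differed between the libraries and rested on 3.18 counts in replicate 2 and 1.72 in replicate 1. For the other 9 members, the same transcript led in both libraries, of 81 transcripts listed for all 10. With shares from the authors' posterior mean TPM this held for 8, as Sun2-201 and Sun2-203 were level in replicate 1, at 37.07% and 37.01%. The coding ends of both nesprins are shown because this is the part that SUN proteins bind; capitals are the last 4 codons before the stop, which sit in the pocket of the SUN domain. Of these 60 bases, 46 were identical between the genes.
Syne1-202: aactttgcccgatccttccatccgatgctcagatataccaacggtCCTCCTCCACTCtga
Syne2-201: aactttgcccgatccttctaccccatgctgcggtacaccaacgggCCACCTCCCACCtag

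Between the libraries, none of the 10 members passed the rule for a difference, an adjusted p under 0.05 and a ratio of 2-fold or more, beside 6.31% of the 15272 genes tested. The exact two-sided binomial test behind it, with Benjamini-Hochberg adjustment over those genes, compares the reads of 2 libraries, not conditions, and covers counting error only. At these depths the p alone separates little: 9 members, the same number as at an unadjusted p under 0.05, and 61.5% of all genes tested had an adjusted p under 0.05. On scaled counts, the median log2 ratio of replicate 2 over replicate 1 was 0.16 for the members, beside 0.02 for protein-coding genes, of which the central range from the 5th to the 95th percentile was -0.81 to 0.76. On the TPM scale, protein-coding genes at 1 TPM or more had a median log2 ratio of -0.26, so TPM ratios are to be read against that shift.

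Lmna, Lbr and Sun2 lay higher in replicate 2, with log2 ratios of 0.29 (95% interval 0.26 to 0.32), 0.30 (0.28 to 0.33) and 0.40 (0.32 to 0.48). Lmnb1 and Emd lay lower in replicate 2, at -0.19 (-0.23 to -0.15) and -0.26 (-0.34 to -0.19). Lmnb2, at -0.03 (-0.08 to 0.03), was the single member whose interval held 0. Tmpo, Sun1 and Syne1 were at 0.12, -0.05 and 0.19. Lmna thus lay on the other side of 0 from Lmnb1. The median size of the log2 ratio over coding genes tested was 0.25, which Lmna, Lbr, Sun2, Emd and Syne2 exceeded and the other members did not, and the common biological coefficient of variation over all genes was 0.215.

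Syne2 had the largest ratio of the members, a log2 ratio of 0.99 (0.58 to 1.44; adjusted p = 2.6e-06, exact binomial test), just inside the 2-fold limit. At 1.5-fold it was the single member called, beside 15.8% of all genes tested. By the 2-fold rule, 3 of the 6 erythroid markers were called, beside 6.31% of all genes tested. Hba-a1, an alpha globin gene, was at 3934 TPM in replicate 2 and 2038 in replicate 1, a log2 ratio of 1.15, Hbb-bs had a log2 ratio of 1.46, and Alas2, the first enzyme of heme synthesis in red cells, of 1.78, all called as higher in replicate 2; globin genes have near-identical copies, so their counts may be split between copies. Gata1, Klf1 and Epor, which encode regulators of the red cell line, were not called, at log2 ratios of 0.43, 0.18 and 0.24. Of the 4 megakaryocyte markers tested, Itga2b was called as higher in replicate 2, at a log2 ratio of 1.12, and Pf4, Gp5 and Gp9 were not called, at -0.20, -0.57 and -0.57. The part of these differences in the members' ratios was not tested.

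**Figure D4:**
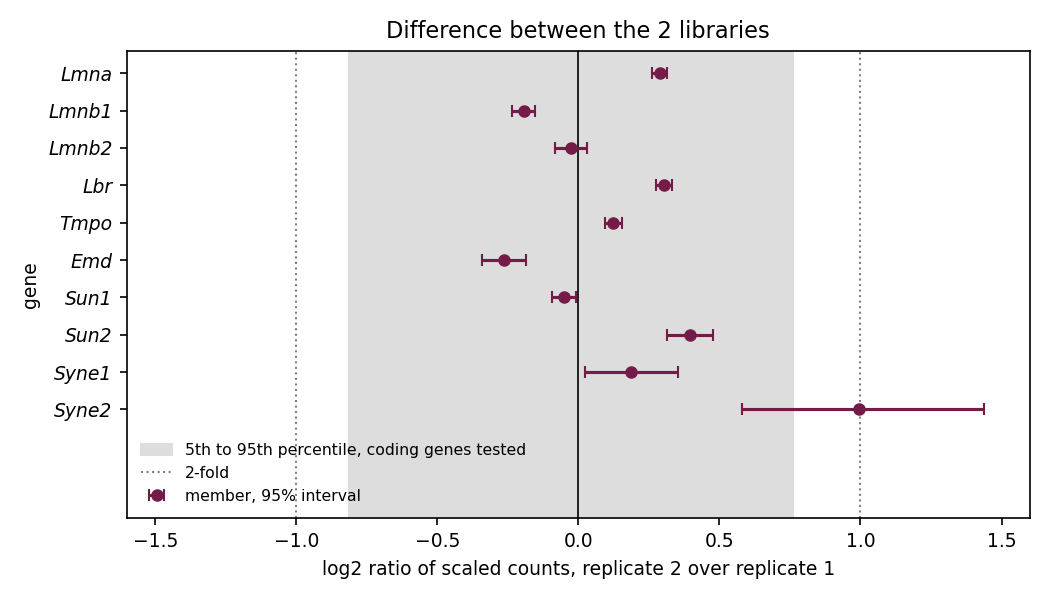
Log2 ratio of scaled counts, replicate 2 over replicate 1, for each member with its 95% interval (counting error only); the grey band spans the 5th to the 95th percentile of coding genes tested and dotted lines mark 2-fold. Every member except Syne2 lies within the band, and Syne2 lies at 0.99.

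The genes that work with this set were described through 5 lists of 33 genes, all of which were found in the tables. Of them, 28 reached 1 TPM in each library and 31 had enough counts for the test. None differed between the libraries by the rule above, beside 6.31% of the 15272 genes tested. In the same exact test, however, 22 had an unadjusted p under 0.05. Over all 15272 genes tested, 61.5% passed that threshold even after adjustment. Their median mean level was 4.04 TPM, beside 9.24 TPM for the members.

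The other SUN and KASH genes formed the least expressed list, with 2 of 7 at 1 TPM or more. Lrmp, which encodes a membrane protein of lymphoid cells with a KASH-like end, was highest at 4.63 TPM in replicate 2 and 5.13 in replicate 1. Syne3, which encodes nesprin-3, a link to intermediate filaments through plectin, was at 1.66 and 1.63 TPM, from 3411 and 2017 counts. Per length, Syne3 was therefore above Syne1 and Syne2 in both libraries. Sun3 and Sun5, whose proteins are known from male germ cells, had 0 counts in both libraries.

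All 12 other LEM and inner membrane genes were at 1 TPM or more. Banf1, which encodes BAF, was highest at 17.1 TPM in replicate 2 and 25.6 in replicate 1, and Nemp1, which encodes an inner membrane protein, was lowest at 2.04 and 2.40. Banf1 was above Tmpo, Lmnb1 and Emd in each library. All 5 genes of lamin end processing were at 1 TPM or more, from Fnta, the shared alpha subunit of farnesyltransferase, at 8.57 and 7.95 TPM, to Fntb, its beta subunit, at 2.09 and 2.55. Zmpste24, the protease that cuts prelamin A, was at 3.21 and 4.27 TPM.

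The 3 HP1 genes, whose proteins bind methylated histone H3 and LBR, ranged from Cbx3 at 19.3 TPM in replicate 2 and 20.0 in replicate 1 to Cbx5 at 6.94 and 6.87. The 6 envelope sealing genes, which encode ESCRT-III proteins and their partners that close holes in the envelope after mitosis, ranged from Chmp2a at 16.1 and 15.4 TPM to Spast, a microtubule-severing enzyme, at 3.01 and 2.98. With Lbr at 22.50 and 22.46 TPM, each HP1 gene had a lower level than Lbr in both libraries.

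**Figure D5:**
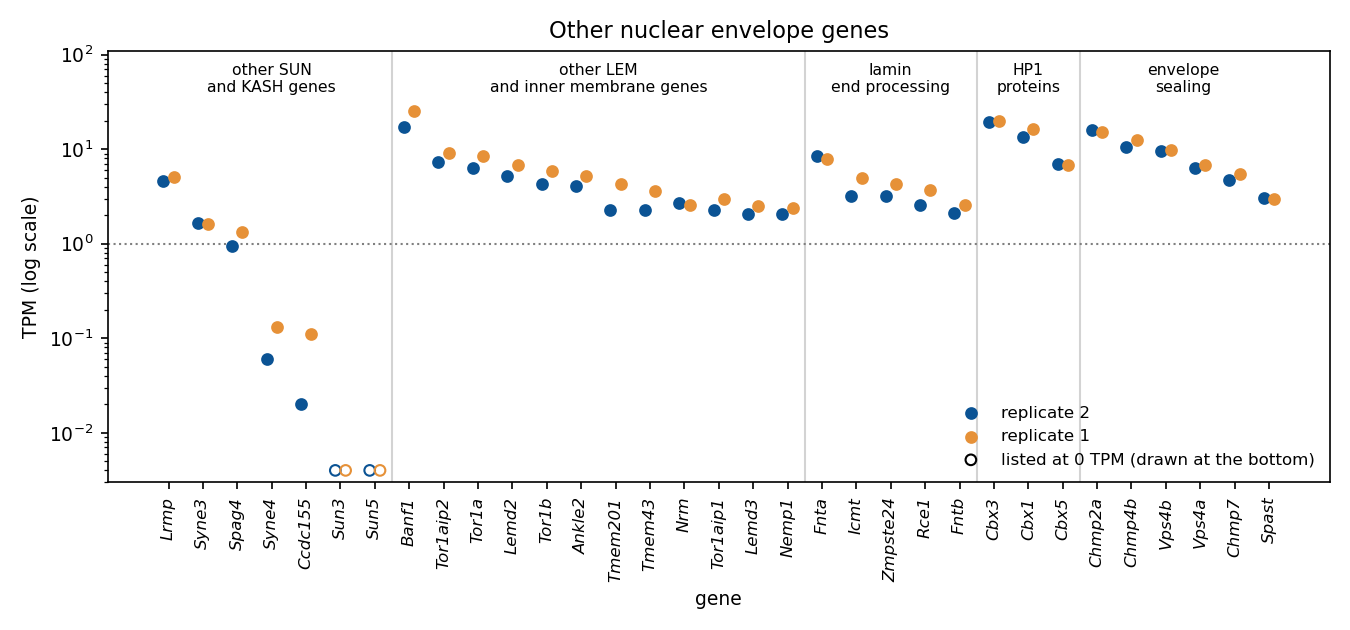
TPM (log axis) of 33 other nuclear envelope genes in 5 lists, with a point for replicate 2 left of a point for replicate 1; open points mark genes listed at 0 TPM, drawn at the bottom, and the dotted line is at 1 TPM. Genes under the line in at least 1 library all belong to the other SUN and KASH list, where Sun3 and Sun5 are at 0.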

How the data were processed

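Total RNA of DMSO-treated MEL cells was sequenced from fragments of 300 to 350 bases, per the labels. Per the deposited readmes, the authors used mm10 and GENCODE M4; no source used here gives the aligner or quantifier. The deposited tables hold, per the file headers, an estimated count, TPM, FPKM, posterior means and posterior standard deviations, and, for transcripts, the percent of the gene's TPM.

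Names, types and coordinates (1-based) came from GENCODE M21: 42462 of 43346 Ensembl gene rows and 80 of the members' 81 transcripts matched, 73 with equal length. The other SUN and KASH gene Kash5 was matched as Ccdc155. Promoters are RefSeq's (GRCm38.p6). Windows, motifs and transcripts were read with Python 3.11.15.

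Estimated counts were rounded, filtered at 10 or more in at least 1 library, scaled by TMM (edgeR 4.0.16, R 4.3.3) and compared per gene with an exact two-sided binomial test and Benjamini-Hochberg adjustment; log2 ratios have 0.5 added and exact (Clopper-Pearson) 95% intervals. DESeq2 1.42.0 gave other size factors. Intervals and floors (3 counts) cover counting error only, as reads are not independent molecules. The test was tried on simulated data. The chi-square statistic over 16019 genes was 368 per degree of freedom, so the libraries differ by more than sampling noise.

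The named items were all 10 members, their transcripts with 10% or more in either library (at most 4), and the highest and lowest gene of each other list, with any that differ; Syne3, Sun3, Sun5, Zmpste24, Gm26765 and single marker genes were named after their values were seen. The members and lists were chosen with earlier results of these data known. Alternatives were other thresholds, scalings, units and single libraries. Some sequence of the members is not reported here.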

Additional observations from a re-analysis of the deposited data

How the results depend on the processing

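Of 79 alternative values for the comparisons, 62 stayed within the spread of the libraries or, for counts, within 1.5 times. That number includes values from each library alone. For a ratio, such a value always lies within the spread at n = 2, so its label was fixed in advance. The median level and the leading share behaved in the same way here, so these values are no check. The median member level was 69.7 when TPM was rescaled to protein-coding genes and 6.82 TPM over transcripts of 1000 bases or more, and 7.88 to 10.6 TPM with each library left out. Counts per kilobase of the longest transcript gave ratios of 0.484 (Lmnb1 over Lmna), 0.204 (Lmnb2 over Lmna), 0.688 (B-type sum over Lmna), 0.892 (Lbr over Lmna), 0.310 (Sun2 over Sun1) and 0.0575 (Syne2 over Syne1). Long transcripts alone gave 0.595 for Lbr over Lmna and 0.322 for Sun2 over Sun1, and posterior mean TPM gave 0.294 for Syne2 over Syne1. The count of members that differ was 1, Syne2, at 1.5-fold. It was 1, Syne2 again, with no count minimum, beside 944 of 22864 genes tested, and the log2 ratio of Syne2 was 1.02 there. Over the other settings the count was 0. All genes that differ numbered 2412 at 1.5-fold, 529 at a minimum of 50 counts and 593 among protein-coding genes only, which test fewer genes. At 1.5-fold, 1 of the 31 other envelope genes tested, Tmem201, was called, with a log2 ratio of -0.64, beside 15.8% of all genes tested. Where not stated, the cause was not tested. No paired analysis was possible because the labels give 1 group. Depth limits Syne2 most, at 175 and 64 counts.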
